A study of Mus musculus with 10 samples.

Results

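The genes described here are 10 genes of hepcidin signalling and iron handling, chosen by symbol: the hepcidin genes Hamp and Hamp2, the hepcidin-inducing ligand Bmp6, its target Id1, the transferrin receptor Tfrc and transferrin (Trf), the iron exporter Slc40a1 (ferroportin), the ferritin subunits Fth1 and Ftl1, and the ferritin-binding receptor Scara5. All 10 were found among the 24062 genes of the deposited table, and all 10 passed the filter on low values that left 12648 genes for testing. RNA of mouse liver was sequenced after poly-A selection. The libraries comprised 2 tumours and 8 liver pools. The tumours are labelled hepatocellular carcinoma and came from single mice given Western diet and carbon tetrachloride for 24 weeks (WD_CCl4_HCC). Each liver pool combined 4 mice, with 1 pool of 12 weeks and 1 of 24 weeks for Western diet with CCl4 (WD_CCl4), normal diet with CCl4 (ND_CCl4), Western diet with oil, the vehicle (WD_oil), and normal diet with oil (ND_oil). CCl4 is a toxin that injures hepatocytes, and the combination with a fat-rich diet is used as a mouse model of fatty liver disease with fibrosis and cancer. The labels used here give no strain, sex, age or dose of CCl4.

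Hepcidin is a peptide hormone that hepatocytes secrete. It binds ferroportin on macrophages, hepatocytes and gut cells and causes its degradation, so that less iron enters the blood. BMP6, made mainly by the endothelial cells of the liver sinusoids, signals through SMAD proteins in hepatocytes to raise Hamp, and interleukin 6 raises it through STAT3. In most cells iron regulatory proteins bind hairpins in mRNAs, the iron responsive elements, when iron is scarce. They stabilise Tfrc mRNA and hold back translation of ferritin and ferroportin, so ferritin protein can change with no change in its RNA. Mice carry a second hepcidin gene, Hamp2. Forced expression of Hamp causes iron-deficiency anaemia in mice, and forced expression of Hamp2 does not.

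The promoters of both hepcidin genes are shown because Hamp and Hamp2 followed different patterns across these libraries. They are the 150 bases before each RefSeq start on the minus strand of chromosome 7 in GRCm38, with GGCGCC (the core of a BMP response element) and TTCTTGGAA (a STAT site) in capitals.
Hamp, chr7:30944030-30944179: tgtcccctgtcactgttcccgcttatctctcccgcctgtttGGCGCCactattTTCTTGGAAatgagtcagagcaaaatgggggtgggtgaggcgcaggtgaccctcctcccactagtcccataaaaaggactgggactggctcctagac
Hamp2, chr7:30924182-30924331: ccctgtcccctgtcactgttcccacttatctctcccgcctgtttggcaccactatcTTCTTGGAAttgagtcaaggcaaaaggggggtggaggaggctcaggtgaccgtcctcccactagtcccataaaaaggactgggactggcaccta
Both motifs were searched on both strands and do not overlap. The Hamp window holds GGCGCC with its first base 109 bases before the start and TTCTTGGAA 97 bases before it. The Hamp2 window holds TTCTTGGAA 94 bases before its start and no GGCGCC. In the alignment of the windows, 135 of 153 columns (88.2%) were identical, and at the BMP core Hamp2 differs from Hamp by the substitution G4A, counted from the first base of GGCGCC. Of 27025 RefSeq mouse promoters of 300 bases, 11.963% held GGCGCC and 0.433% held TTCTTGGAA, and of the 6 members with a promoter entry Tfrc also held GGCGCC, 89 bases before its start. A match is a run of letters and no measurement of binding.

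The iron responsive elements are shown because they divide the uptake gene from the storage and export genes by their place in the mRNA. The search asked for a loop of CAGTG followed by A, C or T (in capitals) between 5 paired bases on each side. It also asked for an unpaired C before the loop-side stem, and each element is given as 30 bases of the GENCODE transcript in GRCm38. The 4 elements that this search found in Tfrc lie in its 3′ UTR on the plus strand. Those of Slc40a1 (minus strand), Fth1 (plus strand) and Ftl1 (minus strand) lie in the 5′ UTR.
Tfrc element 1, chr16:32631219-32631248: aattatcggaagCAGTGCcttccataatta
Tfrc element 2, chr16:32631598-32631627: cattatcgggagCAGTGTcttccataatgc
Tfrc element 3, chr16:32631663-32631692: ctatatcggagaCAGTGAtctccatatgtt
Tfrc element 4, chr16:32631710-32631739: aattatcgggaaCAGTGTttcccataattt
Slc40a1, chr1:45925464-45925493: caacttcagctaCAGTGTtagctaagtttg
Fth1, chr19:9982732-9982761: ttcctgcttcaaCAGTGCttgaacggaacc
Ftl1, chr7:45459778-45459807: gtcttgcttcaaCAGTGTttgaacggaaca
Letters of this kind were found in transcripts of 222 of 21877 genes (1.015%), 4 of which are members.

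The libraries held 23206229 to 30137802 reads assigned to genes, recovered from the deposited values as whole reads. Values below are these reads after the authors' scaling, called normalised reads, and changes are log2 fold changes of (value + 1) with the standard error of a limma fit, 2 pools against 2 unless stated. No condition had a replicate pool of 1 duration, so the p-values of the liver comparisons rest on how pools of 12 and 24 weeks vary and not on single animals, and WD_CCl4, ND_CCl4 and WD_oil are all set against the same ND_oil pools. The tumours differed from each other more than the pools did: albumin took 7.29% of reads in tumour 1 and 17.7% in tumour 2, and the tumour marker Gpc3 had 1.76 and 371 normalised reads in tumours 1 and 2. Genes with near-identical copies can be undercounted in this table. The adult globins Hba-a1, Hba-a2, Hbb-bs and Hbb-bt are listed at 0 in every library although the erythroid gene Alas2 had 24.1 to 215 normalised reads, and Ass1, a urea cycle gene with many pseudogenes, had 0.0776 to 0.598. Hamp and Hamp2 transcripts are 92.4% identical, and 60 of the 361 stretches of 50 bases in Hamp (16.6%) also occur in Hamp2. Fth1 and Ftl1 have processed pseudogenes. How the authors counted reads that fit several genes is not given in the sources used here, so the absolute levels of these 4 genes are uncertain.

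Across the liver comparisons, changes of the members lay in hepcidin, Id1, Tfrc and Scara5, while transferrin, ferroportin, both ferritins and Bmp6 were not called by limma on the deposited scale. In WD_CCl4 against ND_oil pools, the joint comparison of diet and CCl4, 4 of 10 members passed an adjusted p of 0.05 (Hamp2 and Id1 higher, Hamp and Tfrc lower), beside 25.9% of all genes tested. In ND_CCl4 against ND_oil pools 2 of 10 passed (Id1 higher, Hamp lower), beside 26.0% of all genes. In WD_oil against ND_oil pools 2 of 10 passed (Hamp2 higher, Scara5 lower), beside 1.99% of all genes. In WD_CCl4 against WD_oil pools 2 of 10 passed (Id1 and Scara5, both higher), beside 6.82% of all genes. The joint comparison and ND_CCl4 against ND_oil thus called members at shares not far from those of all genes, whereas calls were rare among all genes in the diet comparison. The members were chosen with earlier results of these data known, so the shares are no test of the members as a set. The median log2 change was 0.01 for the members and -0.02 for all genes tested in the joint comparison, -0.03 for the members and 0.00414 for all genes tested for ND_CCl4, -0.11 for the members and 0.02 for all genes tested for WD_oil against ND_oil and -0.04 for the members and -0.02 for all genes tested for WD_CCl4 against WD_oil. In WD_CCl4 against ND_CCl4 pools limma called 0 of 10 members, beside 0.0474% of all genes; 3 members had an unadjusted p under 0.05, edgeR called 0 (beside 0.0395% of all genes) and DESeq2 called 1, Hamp2 (beside 0.530%). Other settings called further members: DESeq2 added Trf in the joint comparison (5 of 10, beside 26.3% of all genes). After quantile normalisation the called members were Hamp, Hamp2, Tfrc, Trf and Slc40a1 in the joint comparison (beside 20.0%) and Hamp, Trf, Fth1 and Scara5 in ND_CCl4 against ND_oil (beside 19.8%).

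**Figure D1:**
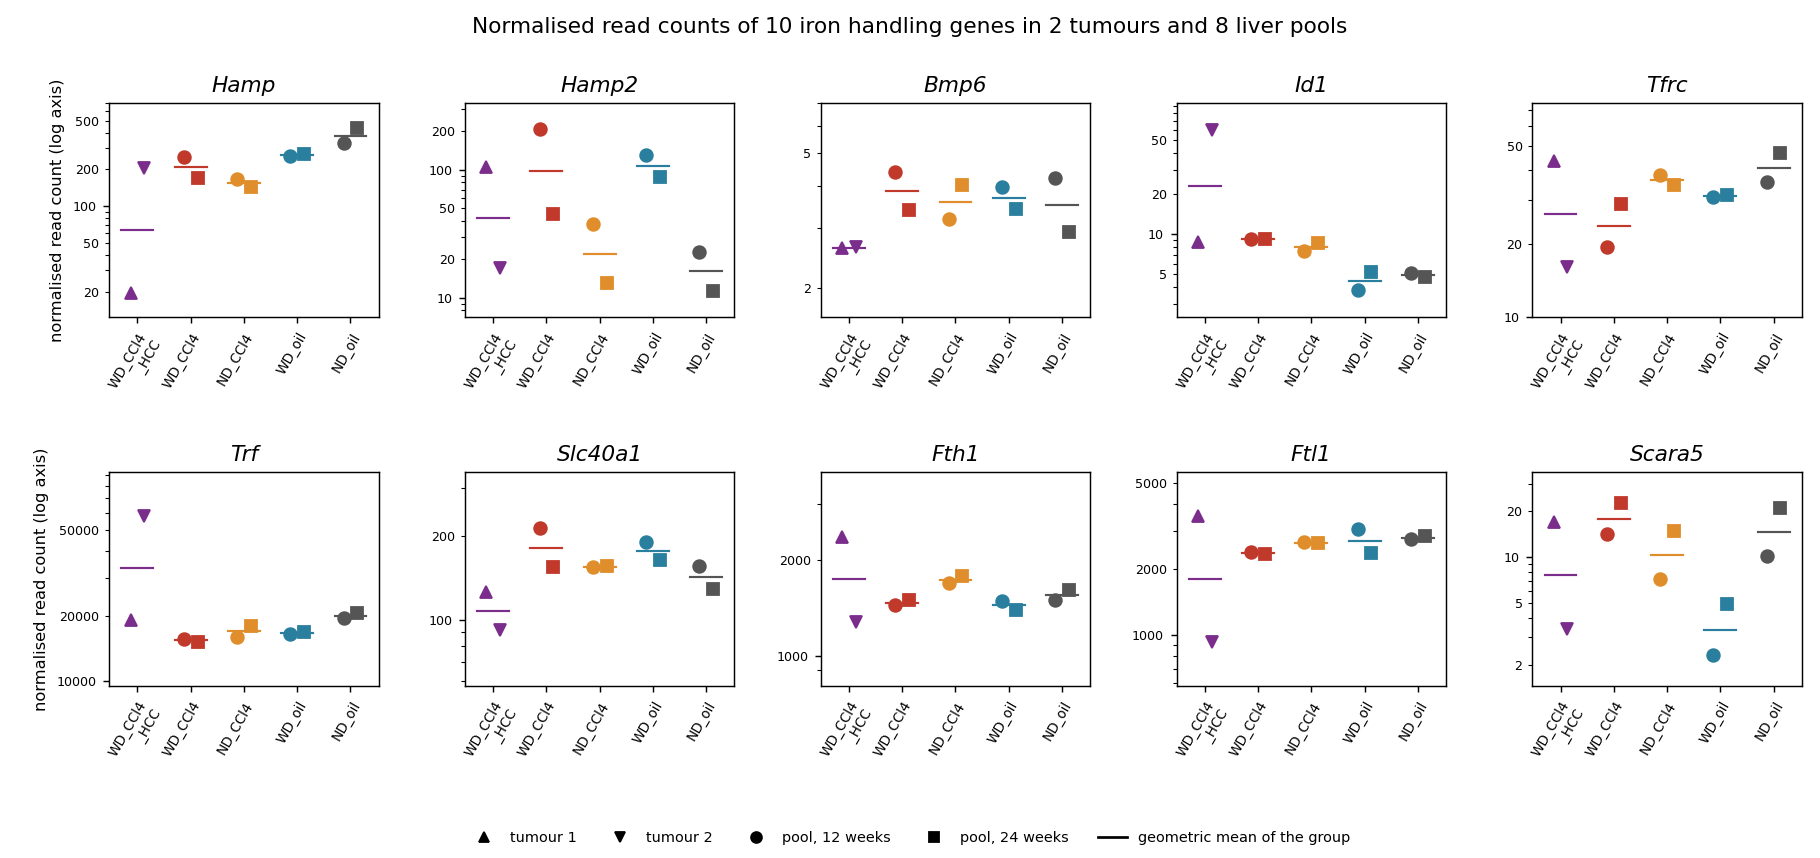
Normalised read counts (log axis, its range set per gene) of the 10 genes in tumours 1 and 2 (triangles) and in the liver pools of 12 weeks (circles) and 24 weeks (squares), with the geometric mean of each group as a line. Hamp2 lies between 45.4 and 208 in the 4 Western-diet pools, above the 4 normal-diet pools (11.3 to 37.8), and Scara5 is lowest in the WD_oil pools among liver pools.

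**Figure D2:**
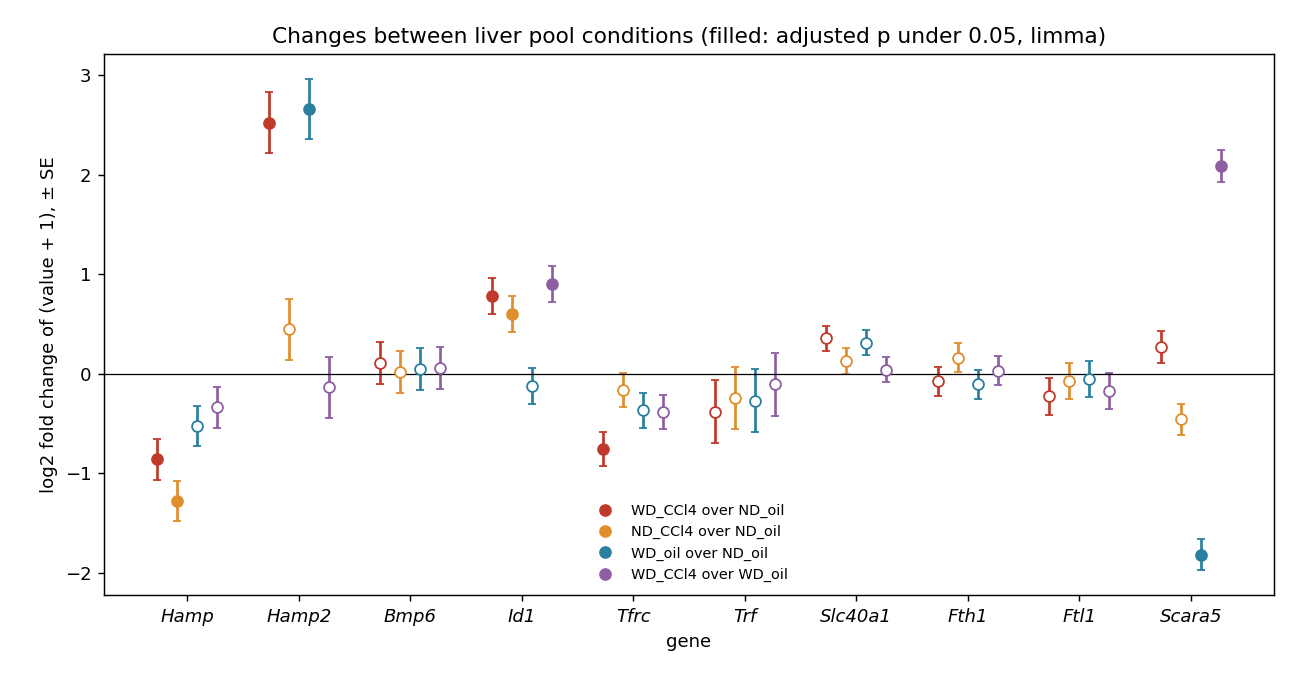
Log2 fold changes with standard errors for each gene in 4 liver comparisons; filled points have an adjusted p under 0.05. Hamp2 stands at 2.52 and 2.66 in the joint and the WD_oil comparisons with ND_oil, and Scara5 at -1.82 in WD_oil against ND_oil and 2.09 in WD_CCl4 against WD_oil.

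Hamp was lower with CCl4 on either diet than in the ND_oil pools, and lowest on the normal diet. Hamp lies at chr7:30942368-30944032 on the minus strand. It had 254 and 169 normalised reads in the WD_CCl4 pools of 12 and 24 weeks, 168 and 144 in the ND_CCl4 pools, 258 and 268 in the WD_oil pools and 327 and 438 in the ND_oil pools. All 4 CCl4 pools and both WD_oil pools lay below both ND_oil pools, and the ND_CCl4 pools lay below the WD_oil pools. Hamp fell by 1.28 ± 0.20 in ND_CCl4 pools (limma, adjusted p = 0.00333) and by 0.86 ± 0.20 in WD_CCl4 pools (adjusted p = 0.01599), both against ND_oil. Its change was -0.52 ± 0.20 in WD_oil against ND_oil (adjusted p = 0.235) and -0.34 ± 0.20 in WD_CCl4 against WD_oil (adjusted p = 0.345). The effect of CCl4 was less negative on the Western than on the normal diet by 0.94 ± 0.29, which did not pass the test of that difference (adjusted p = 0.393, unadjusted p = 0.0101). Without the WD_CCl4 pool of 24 weeks the joint change was -0.53 (adjusted p = 0.106) and without the ND_oil pool of 24 weeks -0.53 (adjusted p = 0.143), so that call rests on these pools, whereas the ND_CCl4 call held whichever of the 8 pools was left out (adjusted p up to 0.0376).

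The summed level of hepatocyte markers, mostly albumin, was lower in the same pools. The summed level of the 10 hepatocyte markers was 115152 and 77044 in the WD_CCl4 pools of 12 and 24 weeks, 95054 and 81335 in the ND_CCl4 pools, 139591 and 118759 in the WD_oil pools and 154917 and 143075 in the ND_oil pools. Of the 9 markers tested, 3 fell in WD_CCl4 and 3 in ND_CCl4 against ND_oil and none rose. These counts stand beside 25.9% and 26.0% of all genes called, shares not far from them. The median log2 change of the markers was -0.59 and -0.72, against -0.02 and 0.00414 for all genes tested. None of the 10 was at 0 in all libraries. The part of the lower marker levels in the lower Hamp was not tested. In such bulk samples fewer cells of a type and less RNA per cell cannot be told apart.

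Hamp2 was higher on the Western diet, with CCl4 or with oil. The gene lies at chr7:30922372-30924681 on the minus strand, beside Hamp. It had 208 and 45.4 normalised reads in the WD_CCl4 pools of 12 and 24 weeks, 37.8 and 12.97 in the ND_CCl4 pools, 131 and 87.9 in the WD_oil pools and 22.9 and 11.3 in the ND_oil pools. The 4 Western-diet pools did not overlap the 4 normal-diet pools, the lowest Western value being 45.4 and the highest normal value 37.8. Hamp2 rose by 2.66 ± 0.30 in WD_oil (limma, adjusted p = 0.00599) and by 2.52 ± 0.30 in WD_CCl4 pools (adjusted p = 0.000798), both against ND_oil, 6.32-fold and 5.74-fold. Between the CCl4 pools of the 2 diets the change was 2.08 ± 0.30, with an adjusted p of 0.0788 in limma and 0.0939 in edgeR, and an adjusted p of 0.00139 in DESeq2. ND_CCl4 pools against ND_oil pools gave 0.44 ± 0.30 (adjusted p = 0.3103), and WD_CCl4 against WD_oil gave -0.14 ± 0.30 (interval -0.83 to 0.55, adjusted p = 0.821). The WD_oil call was lost without the WD_oil pool of 24 weeks (2.18, adjusted p = 0.0855), the ND_oil pool of 12 weeks (2.44, 0.0536) or that of 24 weeks (2.88, 0.0516), while the joint call held without any 1 of the 8 pools.

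The share of Hamp2 in hepcidin RNA differed with diet. Hamp2 made up 44.96% of all Hamp and Hamp2 reads in the WD_CCl4 pool of 12 weeks (95% Wilson interval 44.1 to 45.8%) and 21.1% in that of 24 weeks (20.2 to 22.1%). The share was 18.4% and 8.28% in the ND_CCl4 pools of 12 and 24 weeks. It was 33.7% and 24.7% in the WD_oil pools and 6.56% and 2.51% in the ND_oil pools. Every Western-diet liver pool thus had a larger share than any normal-diet pool, and within each condition the share was smaller at 24 than at 12 weeks. The tumours lay far apart, at 84.3% (82.97 to 85.5%) in tumour 1 and 7.59% (6.94 to 8.304%) in tumour 2. The intervals cover counting error only, and reads that Hamp and Hamp2 share could move these shares.

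**Figure D3:**
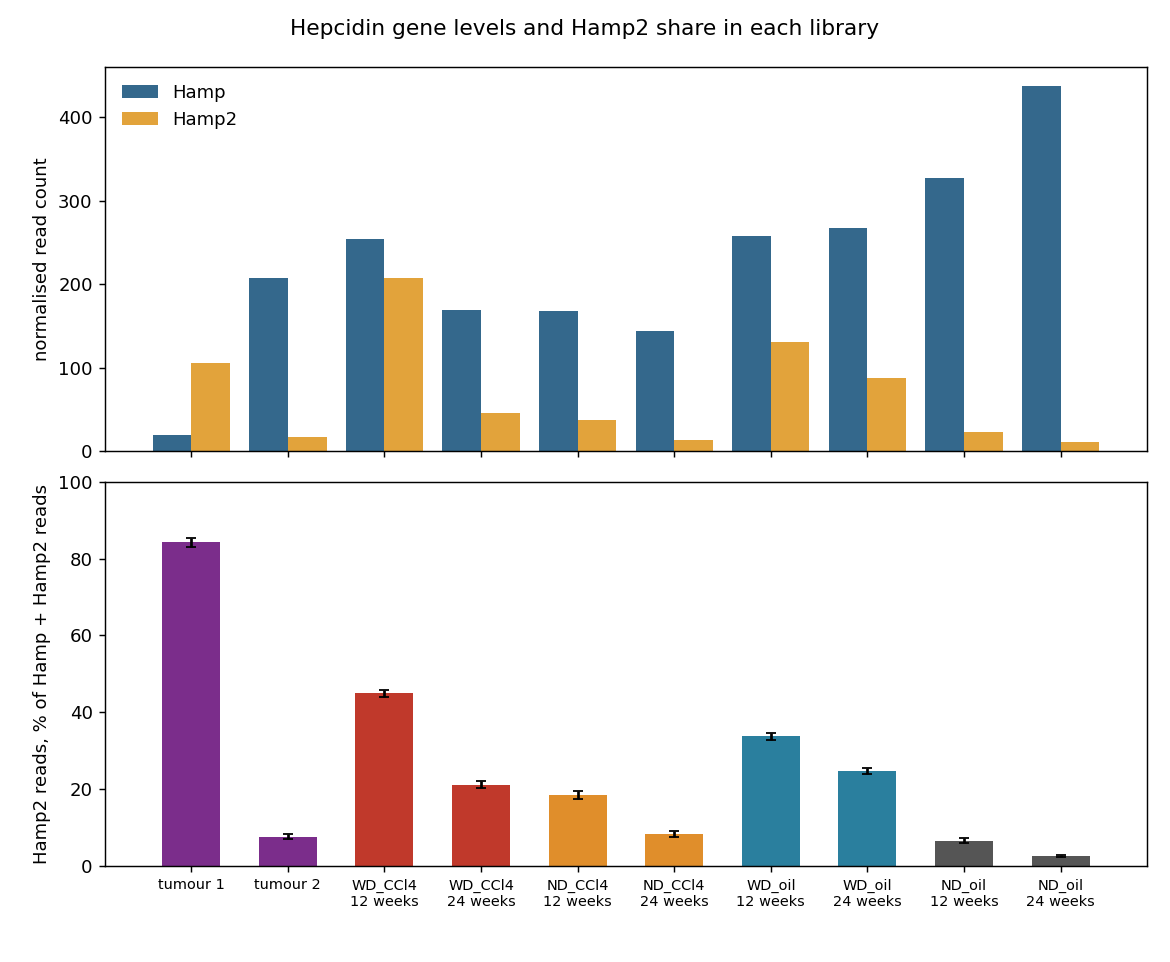
Normalised read counts of Hamp and Hamp2 (upper panel) and Hamp2 as a percentage of the reads of both genes with 95% Wilson intervals (lower panel), for each tumour and each liver pool. Tumour 1, at 84.3%, is the one library where Hamp2 exceeds Hamp, and the ND_oil pools have the smallest shares among liver pools of 12 weeks and of 24 weeks.

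Id1, a transcriptional regulator and direct target of BMP-SMAD signalling, rose with CCl4. Bmp6, the gene of a ligand of this signalling, did not change detectably. Id1 (chr2:152736251-152737410, plus strand) had 9.22 and 9.22 normalised reads in the WD_CCl4 pools of 12 and 24 weeks, 7.52 and 8.55 in the ND_CCl4 pools, 3.803 and 5.23 in the WD_oil pools and 5.15 and 4.76 in the ND_oil pools. All 4 CCl4 pools lay above all 4 oil pools. Id1 rose by 0.78 ± 0.18 in WD_CCl4 (limma, adjusted p = 0.0141) and by 0.60 ± 0.18 in ND_CCl4 (adjusted p = 0.0391) against ND_oil, and by 0.90 ± 0.18 in WD_CCl4 against WD_oil (adjusted p = 0.0252). WD_oil against ND_oil gave -0.12 ± 0.18 (adjusted p = 0.764). These calls were near the threshold at levels under 10 normalised reads: without single pools the adjusted p reached 0.116 for WD_CCl4 and 0.237 for ND_CCl4 against ND_oil, both without the ND_oil pool of 24 weeks, and 0.194 for WD_CCl4 against WD_oil without the WD_oil pool of 24 weeks. After quantile normalisation the 3 changes were 0.50, 0.33 and 0.73, with adjusted p of 0.0823, 0.207 and 0.0639.

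Bmp6 (chr13:38345107-38500302, plus strand) was low in every library, from 2.93 to 4.38 normalised reads in the liver pools. It had 4.38 and 3.39 normalised reads in the WD_CCl4 pools of 12 and 24 weeks, 3.18 and 4.01 in the ND_CCl4 pools, 3.97 and 3.41 in the WD_oil pools and 4.21 and 2.93 in the ND_oil pools. All groups overlapped. The log2 change was 0.10 (interval -0.38 to 0.58) in WD_CCl4, 0.02 (-0.46 to 0.50) in ND_CCl4 and 0.05 (-0.43 to 0.53) in WD_oil pools against ND_oil, with adjusted p of 0.749, 0.963 and 0.927. Endothelial genes were higher than in ND_oil livers with CCl4 and, less clearly, with Western diet alone. Of 12 sinusoidal endothelial markers 5 rose in WD_CCl4 and 6 in ND_CCl4 against ND_oil, beside 25.9% and 26.0% of all genes called, and none fell (medians 0.52 and 0.50). In WD_oil against ND_oil limma called 0, with 7 at an unadjusted p under 0.05 and a median of 0.39. In WD_CCl4 against WD_oil it called 0, with a median of 0.12. Their summed level was 577 and 432 in WD_CCl4, 456 and 557 in ND_CCl4, 471 and 443 in WD_oil and 386 and 321 in ND_oil pools of 12 and 24 weeks, with no marker at 0 in all libraries, and its part in the levels of Bmp6 and Id1 was not tested.

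Of 26 other genes of BMP-SMAD signalling and hepcidin control, 24 could be tested. In WD_CCl4 against ND_oil 2 rose and 2 fell, in ND_CCl4 2 rose and 3 fell, and in WD_oil 0 rose and 1 fell, with median log2 changes of 0.08, -0.02 and 0.00. The inhibitory SMADs, which BMP signalling induces and which damp it, went up against ND_oil: Smad6 by 0.67 ± 0.17 and Smad7 by 0.57 ± 0.15 in WD_CCl4 (adjusted p = 0.0236 and 0.0247), and Smad6 by 0.68 ± 0.17 in ND_CCl4 (adjusted p = 0.0228). Both WD_oil pools also lay above both ND_oil pools, without a call. Smad6 had 6.49 and 7.45 normalised reads there against 4.97 and 4.85 in ND_oil, and Smad7 had 11.0 and 11.4 against 7.54 and 8.33. In WD_CCl4 against WD_oil limma called no gene of this list higher. Fgl1, a hepatocyte-secreted protein that lowers hepcidin in mice, fell in all 3 comparisons with ND_oil, by 1.32 ± 0.22 in WD_CCl4, 1.01 ± 0.22 in ND_CCl4 and 1.24 ± 0.22 in WD_oil (adjusted p = 0.00336, 0.0115 and 0.0286). It had 126 and 195 normalised reads in the WD_CCl4 pools of 12 and 24 weeks, 181 and 208 in the ND_CCl4 pools, 181 and 151 in the WD_oil pools and 299.8 and 514 in the ND_oil pools, so that both ND_oil pools were the highest. Tfr2, the hepatocyte sensor of iron-loaded transferrin that promotes hepcidin, fell by 0.60 ± 0.11 in WD_CCl4 against ND_oil (adjusted p = 0.00626). Against WD_oil its fall in WD_CCl4 was 0.47 ± 0.11 (adjusted p = 0.0433). Tfr2 was also lower in both ND_CCl4 pools (412 and 333 normalised reads) than in either ND_oil pool (557 and 491). For Tfr2, WD_CCl4 against ND_CCl4 gave -0.10 ± 0.11 (limma, adjusted p = 0.911). In ND_CCl4 pools Gdf15, a stress cytokine, rose by 0.59 ± 0.15 and Id2, a relative of Id1, fell by 0.57 ± 0.18 (adjusted p = 0.0218 and 0.0439).

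Tfrc, the receptor that takes up iron-loaded transferrin and whose mRNA carries the 4 elements shown above, was lower in WD_CCl4 than in ND_oil livers. Tfrc (chr16:32608920-32632794, plus strand) had 19.3 and 29.01 normalised reads in the WD_CCl4 pools of 12 and 24 weeks, 37.99 and 34.5 in the ND_CCl4 pools, 30.8 and 31.7 in the WD_oil pools and 35.4 and 46.7 in the ND_oil pools. Both WD_CCl4 pools lay below every other liver pool, and the ND_CCl4 pools overlapped the ND_oil pools. Tfrc fell by 0.76 ± 0.17 in WD_CCl4 against ND_oil (limma, adjusted p = 0.01405). Neither diet nor CCl4 alone passed the test, at -0.37 ± 0.17 in WD_oil (adjusted p = 0.312) and -0.16 ± 0.17 in ND_CCl4 (adjusted p = 0.512), and the interaction was -0.22 ± 0.25 (adjusted p = 0.806). The joint change was -0.52 without the WD_CCl4 pool of 12 weeks (adjusted p = 0.0814) and -0.64 without the ND_oil pool of 24 weeks (adjusted p = 0.1196). Dividing and erythroid cells carry much Tfrc. The 12 markers of dividing cells summed to 33.99 and 66.4 in WD_CCl4, 58.3 and 63.1 in ND_CCl4, 20.2 and 18.6 in WD_oil and 14.1 and 27.6 in ND_oil pools. In WD_CCl4 against ND_oil 6 of 12 rose and none fell, beside 25.9% of all genes called. The erythroid list summed to 164 and 111, 118 and 90.6, 202 and 174 and 184 and 218 in the same order, nearly all of it Alas2 and with the 4 globins at 0. Of the 3 tested, 1 fell (Alas2) and none rose. The part of dividing cells and of erythroid RNA in Tfrc was not tested.

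Trf, the transferrin that carries iron in plasma, was the most abundant member and hepatocytes are its main source. Per kilobase of exon its median over the 8 pools was 5824 normalised reads, ahead of 2735 for Ftl1, 926 for Fth1, 624 for Hamp, 71.4 for Hamp2 and 45.04 for Slc40a1. Tfrc, Id1, Scara5 and Bmp6 had 6.24, 5.49, 2.17 and 1.01 on this scale. Trf (chr9:103204001-103230444, minus strand) had 15744 and 15173 normalised reads in the WD_CCl4 pools of 12 and 24 weeks, 15995 and 18083 in the ND_CCl4 pools, 16518 and 16832 in the WD_oil pools and 19642 and 20661 in the ND_oil pools. The ND_oil pools were the highest of the liver pools, the WD_CCl4 pools were the lowest, and the WD_oil pools lay between the ND_CCl4 pools. The changes against ND_oil were -0.38 ± 0.32 in WD_CCl4, -0.24 ± 0.32 in ND_CCl4 and -0.27 ± 0.32 in WD_oil (limma, adjusted p = 0.396, 0.6001 and 0.692). DESeq2 called Trf lower in WD_CCl4, at -0.37 (adjusted p = 0.0195). After quantile normalisation limma gave -0.995 in WD_CCl4 and -0.995 in ND_CCl4 (adjusted p = 0.004895 and 0.00576). That method replaces each value by the reference value of its rank. For a gene this abundant the equal changes reflect its rank and do not measure a size. The call of Trf thus depends on the scaling and the tool.

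Among 15 other genes of cellular iron uptake, 13 of which could be tested, 3 rose and 4 fell in WD_CCl4 against ND_oil, 2 rose and 3 fell in ND_CCl4, and none passed the test in WD_oil, where 2 had an unadjusted p under 0.05 in limma. The medians were -0.17, -0.05 and -0.01. The largest rise was that of Lcn2 (lipocalin 2, which binds bacterial iron carriers), at 3.23 ± 0.26 in WD_CCl4 and 3.50 ± 0.26 in ND_CCl4 (adjusted p = 0.000147 and 0.000117). The metalloreductase Steap4 rose by 0.66 ± 0.14 and 0.83 ± 0.14 (adjusted p = 0.0101 and 0.00401), and Steap2, of the same family, rose by 0.96 ± 0.26 in WD_CCl4 (adjusted p = 0.0256). The metal transporter Slc39a8 fell by 0.74 ± 0.16 and 0.51 ± 0.16 (adjusted p = 0.0101 and 0.0412), and Timd2, a receptor for H-ferritin in mice, fell by 0.62 ± 0.15 in ND_CCl4 (adjusted p = 0.0171). Lcn2 is also made by neutrophils: the 8 neutrophil markers summed to 8.49 and 11.3 in WD_CCl4, 6.603 and 10.1 in ND_CCl4, 4.999 and 9.195 in WD_oil and 4.13 and 4.89 in ND_oil pools, and 1 of the 3 tested rose in WD_CCl4 against ND_oil. In WD_CCl4 against WD_oil Lcn2 and Steap4 also rose, by 3.20 ± 0.26 and 0.61 ± 0.14 (adjusted p = 0.000625 and 0.0378). The part of neutrophils in Lcn2 was not tested.

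The ferritin genes, which encode the heavy and light subunits of the iron storage shell, were not called in the livers on the deposited scale. Fth1 (chr19:9980598-9985098, plus strand) had 1446 and 1500.4 normalised reads in the WD_CCl4 pools of 12 and 24 weeks, 1692 and 1787 in the ND_CCl4 pools, 1489 and 1396 in the WD_oil pools and 1497 and 1614 in the ND_oil pools. The ND_CCl4 pools were the highest, and the WD_CCl4 pools overlapped both the WD_oil and the ND_oil pools. The change was -0.08 (interval -0.41 to 0.26) in WD_CCl4, 0.16 (-0.17 to 0.50) in ND_CCl4 and -0.11 (-0.44 to 0.23) in WD_oil against ND_oil, with adjusted p of 0.727, 0.448 and 0.742 in limma. Ftl1 (chr7:45457944-45459884, minus strand) had 2398 and 2361 normalised reads in the WD_CCl4 pools of 12 and 24 weeks, 2664 and 2630.4 in the ND_CCl4 pools, 3057 and 2368 in the WD_oil pools and 2747 and 2836 in the ND_oil pools. Both WD_CCl4 pools lay below the ND_CCl4 and ND_oil pools, and the WD_oil pools spanned all of these but the lowest. Its change was -0.23 (interval -0.64 to 0.18) in WD_CCl4, -0.08 (-0.49 to 0.34) in ND_CCl4 and -0.05 (-0.47 to 0.36) in WD_oil, with adjusted p of 0.378, 0.788 and 0.909. The sign for Ftl1, and for Fth1 in WD_CCl4, depended on the scaling: after quantile normalisation Fth1 stood at 0.26 in WD_CCl4 and 0.54 in ND_CCl4 (adjusted p = 0.227 and 0.0353, the second a call), and Ftl1 at 0.21 and 0.39 (adjusted p = 0.389 and 0.132). Ferritin protein was not measured.

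Slc40a1, the iron exporter that hepcidin degrades, had 214 and 155 normalised reads in the WD_CCl4 pools of 12 and 24 weeks, 155 and 156 in the ND_CCl4 pools, 191 and 164 in the WD_oil pools and 156 and 129 in the ND_oil pools (chr1:45908068-45926523, minus strand). Of the Western-diet pools 3 lay above every normal-diet pool, and the WD_CCl4 pool of 24 weeks lay among the normal-diet pools. Limma called no comparison of liver pools on the deposited scale: the changes were 0.35 ± 0.13 in WD_CCl4, 0.12 ± 0.13 in ND_CCl4 and 0.31 ± 0.13 in WD_oil against ND_oil (adjusted p = 0.0751, 0.507 and 0.262). After quantile normalisation the WD_CCl4 change was 0.55 and passed (limma, adjusted p = 0.0179). Resident macrophages carry much ferroportin, and their 9 markers summed to 936 and 651 in WD_CCl4, 582 and 751 in ND_CCl4, 435 and 521 in WD_oil and 275 and 381 in ND_oil pools, with none at 0 in all libraries. Of these, 5 rose in WD_CCl4 and 5 in ND_CCl4 against ND_oil and none fell (medians 0.74 and 0.85), beside 25.9% and 26.0% of all genes called. Of 10 markers of recruited macrophages, 9 rose in each of these comparisons, with medians of 2.40 and 2.15. The part of macrophages in Slc40a1 was not tested. Among 8 other genes of iron storage, chaperoning and export, of which 6 were tested and 2 were at 0 in all libraries, the ferroxidase Heph, which works with ferroportin in gut cells, rose by 1.02 ± 0.22 in WD_CCl4 and by 0.70 ± 0.22 in ND_CCl4 (adjusted p = 0.01001 and 0.0442), and by 0.97 ± 0.22 in WD_CCl4 against WD_oil (adjusted p = 0.0346), at levels of 1.45 to 5.52 in the pools. Mon1a, which takes part in the traffic of ferroportin to the surface of mouse macrophages, fell by 0.52 ± 0.13 in WD_CCl4 (adjusted p = 0.0228). No other gene of the list passed in these comparisons, and in WD_oil against ND_oil none of the 6 passed and 0 had an unadjusted p under 0.05.

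Scara5, a scavenger receptor that binds ferritin in mice, was low in the WD_oil livers and not in those given Western diet and CCl4. Scara5 (chr14:65666403-65764826, plus strand) had 14.1 and 22.3 normalised reads in the WD_CCl4 pools of 12 and 24 weeks, 7.200 and 14.8 in the ND_CCl4 pools, 2.31 and 4.93 in the WD_oil pools and 10.2 and 20.9 in the ND_oil pools. Both WD_oil pools lay below every other liver pool, and the WD_CCl4 pools overlapped the ND_oil pools. Scara5 fell by 1.82 ± 0.16 in WD_oil against ND_oil (limma, adjusted p = 0.00161), a level 3.53-fold lower. It rose by 2.09 ± 0.16 in WD_CCl4 against WD_oil (adjusted p = 0.000477), 4.24-fold. ND_CCl4 against ND_oil gave -0.46 ± 0.16 (adjusted p = 0.0621; after quantile normalisation -0.54, adjusted p = 0.0414) and WD_CCl4 against ND_oil 0.27 ± 0.16 (adjusted p = 0.241). The test of the difference between the CCl4 effects on the 2 diets gave 2.54 ± 0.22 (adjusted p = 0.00612), and Scara5 was the 1 member of 10 past this test, beside 0.103% of all genes tested. Without the WD_oil pool of 12 weeks the interaction was 2.55 (adjusted p = 0.0945) and without that of 24 weeks 2.54 (adjusted p = 0.0525), so its size held while its call was lost, and the 2 pairwise calls held without any 1 of the 8 pools.

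Scara5 is expressed in stellate cells and fibroblasts of mice. Their 10 markers summed to 849 and 1272 in WD_CCl4, 643 and 949.5 in ND_CCl4, 479.6 and 503 in WD_oil and 243 and 257 in ND_oil pools of 12 and 24 weeks, with none at 0 in all libraries. In WD_oil against ND_oil 5 of 10 rose and none fell (median 0.73), whereas Scara5 fell there. In WD_CCl4 against WD_oil 6 of 10 rose (median 0.81) and Scara5 rose too. The part of these cells in the level of Scara5 was not tested.

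Among genes of haem metabolism, Alas1 rose with CCl4 on both diets. Of 11 genes of haem synthesis, 1 rose and 2 fell in WD_CCl4 and 1 rose and 1 fell in ND_CCl4 against ND_oil, with medians of -0.33 and -0.20. Alas1, which catalyses the rate-limiting step of haem synthesis in the liver, had 685 and 682 normalised reads in the WD_CCl4 pools of 12 and 24 weeks, 803 and 529.6 in the ND_CCl4 pools, 293 and 307 in the WD_oil pools and 139 and 264 in the ND_oil pools. All CCl4 pools lay above all oil pools. Alas1 rose by 1.83 ± 0.28 in WD_CCl4 and 1.76 ± 0.28 in ND_CCl4 against ND_oil, and by 1.18 ± 0.28 in WD_CCl4 against WD_oil (limma, adjusted p = 0.00236, 0.00334 and 0.04303). Its erythroid relative Alas2 fell by 0.58 ± 0.18 in WD_CCl4 and 0.96 ± 0.18 in ND_CCl4 (adjusted p = 0.0418 and 0.00628), and Alad, the next enzyme of the pathway, fell by 0.52 ± 0.16 in WD_CCl4 (adjusted p = 0.0385).

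Of 11 genes of haem breakdown and scavenging, 1 rose and 2 fell in WD_CCl4 and 2 rose and 2 fell in ND_CCl4 against ND_oil (medians -0.16 and -0.01). Hmox1, the inducible haem oxygenase, rose by 0.64 ± 0.13 and 0.81 ± 0.13 (adjusted p = 0.00905 and 0.00368). Ambp, the source of the haem-binding alpha-1-microglobulin, fell by 0.64 ± 0.20 and 0.77 ± 0.20 (adjusted p = 0.0438 and 0.0246). Blvrb, a biliverdin reductase, fell by 0.60 ± 0.14 in WD_CCl4 (adjusted p = 0.0145). In ND_CCl4 Mfsd7c, listed under its older symbol for the haem transporter family member Flvcr2, rose by 0.95 ± 0.25, and Hmox2, the constitutive haem oxygenase, fell by 0.43 ± 0.13 (adjusted p = 0.0241 and 0.0394).

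Of 12 genes of iron and oxygen sensing, 1 rose and 1 fell in WD_CCl4, 2 rose and 0 fell in ND_CCl4 and 1 rose and 0 fell in WD_oil against ND_oil (medians -0.01, 0.03 and 0.06). Nfe2l2 (NRF2, a regulator of antioxidant, ferritin and Hmox1 genes) rose in all 3, by 0.59 ± 0.10, 0.69 ± 0.10 and 0.73 ± 0.10 (limma, adjusted p = 0.00458, 0.00258 and 0.0142). Of the oxygen-sensing prolyl hydroxylases, Egln3 fell by 0.57 ± 0.16 in WD_CCl4 and Egln1 rose by 0.42 ± 0.12 in ND_CCl4 (adjusted p = 0.02902 and 0.03403). Of 17 genes of mitochondrial iron and iron-sulfur assembly, 0 rose and 2 fell in WD_CCl4 and 0 rose and 2 fell in ND_CCl4 (medians -0.18 and -0.18). The mitochondrial iron importer Slc25a37 fell by 0.47 ± 0.15 in WD_CCl4 and the assembly factor Isca2 by 0.46 ± 0.13 in ND_CCl4 (adjusted p = 0.0473 and 0.0365). Acute-phase genes, among which hepcidin is counted as a responder to interleukin 6, went both ways: of 20, 4 rose and 7 fell in WD_CCl4, 4 rose and 7 fell in ND_CCl4 and 1 rose and 1 fell in WD_oil. Orm3, an acid glycoprotein, rose by 1.85 ± 0.22 in WD_CCl4, 2.49 ± 0.22 in ND_CCl4 and 1.40 ± 0.22 in WD_oil (limma, adjusted p = 0.000722, 0.0002697 and 0.0181). Serum amyloid P (Apcs) fell by 1.07 ± 0.16 in WD_CCl4 and 0.96 ± 0.16 in WD_oil (adjusted p = 0.00199 and 0.0208). Its ND_CCl4 pools, at 53.3 and 67.95 normalised reads, also lay below the ND_oil pools, at 93.5 and 133. The fibrinogen chain Fgg fell by 1.06 ± 0.19 in WD_CCl4 (adjusted p = 0.00468). The chain Fgb fell by 1.04 ± 0.19 in WD_CCl4 and 1.19 ± 0.19 in ND_CCl4 (adjusted p = 0.00559 and 0.00349). Fgg was also lower in the ND_CCl4 pools, with 2301 and 2081 normalised reads against 5212 and 4739 in the ND_oil pools. Orm3 is low, at 1.42 to 18.02 normalised reads in the pools, and has close relatives.

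**Figure D4:**
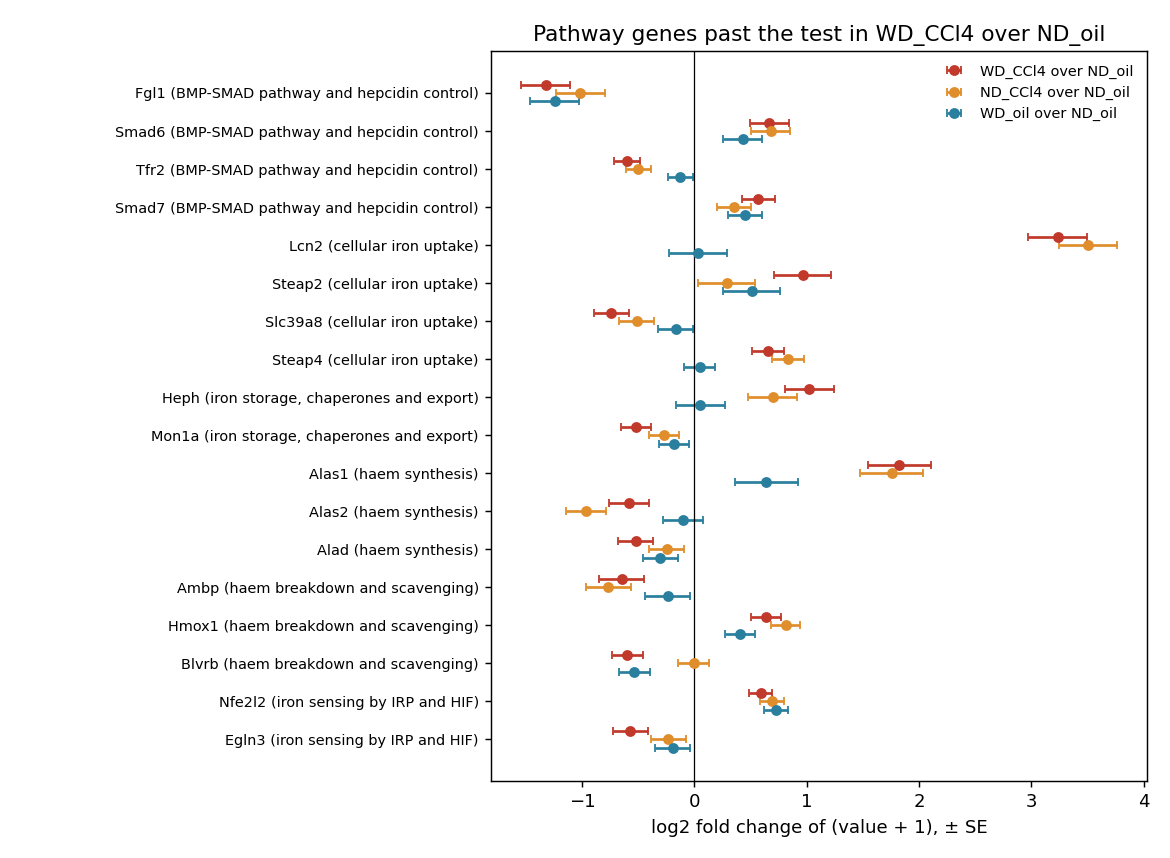
Log2 fold changes with standard errors of the other iron and haem genes named for the WD_CCl4 against ND_oil comparison, each with its list in brackets and without the acute-phase and mitochondrial lists, shown for WD_CCl4, ND_CCl4 and WD_oil over the same ND_oil pools. Lcn2 (3.23 and 3.50) and Alas1 (1.83 and 1.76) are farthest to the right in WD_CCl4 and ND_CCl4, and Fgl1 is left of 0 in all 3 comparisons.

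Duration was compared over the 4 conditions, 24 weeks against 12 weeks, 4 pools each. Limma called 0 of 10 members, beside 0% of all genes, with 3 members at an unadjusted p under 0.05. edgeR also called 0 (beside 0.00791% of all genes) and DESeq2 called 2, Hamp2 and Scara5 (beside 0.712%). Hamp2 had 45.4, 12.97, 87.9 and 11.3 normalised reads at 24 weeks against 208, 37.8, 131 and 22.9 at 12 weeks in WD_CCl4, ND_CCl4, WD_oil and ND_oil pools, so it was lower at 24 weeks in 4 of 4 conditions. Its log2 difference was -1.29 ± 0.22 (limma, unadjusted p = 0.000222, adjusted p = 0.334; DESeq2, adjusted p = 0.0216). Scara5 had 22.3, 14.8, 4.93 and 20.9 at 24 weeks against 14.1, 7.200, 2.31 and 10.2 at 12 weeks, higher at 24 weeks in 4 of 4 conditions. Its log2 difference was 0.85 ± 0.11 (limma, unadjusted p = 3.83e-05, adjusted p = 0.187; DESeq2, adjusted p = 1.50e-05). The 10 stellate cell and fibroblast markers were also higher at 24 weeks in 4 of 4 conditions, summing to 1272, 949.5, 503 and 257 at 24 weeks against 849, 643, 479.6 and 243 at 12 weeks, with a median log2 difference of 0.31. Limma called none of them, and 5 of 10 had an unadjusted p under 0.05. Their part in the difference of Scara5 was not tested. Slc40a1 was the third member at an unadjusted p under 0.05, at -0.23 ± 0.09 (limma, adjusted p = 0.394). Hamp was higher at 24 weeks in both oil conditions and lower in both CCl4 conditions, with a difference of -0.08 ± 0.14 over all (adjusted p = 0.866).

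The tumours parted in the hepcidin genes, Id1, transferrin and light ferritin. Hamp had 19.6 and 207 normalised reads in tumours 1 and 2 against 254 and 169 in the WD_CCl4 liver pools of 12 and 24 weeks, so tumour 1 lay below and tumour 2 within them. Hamp2 had 105 in tumour 1 and 17.00 in tumour 2 against 208 and 45.4 in those pools. Tumour 1 thus lay within the pools for Hamp2 and below them for Hamp, and tumour 2 the other way round. Both tumours were of 24 weeks, and for Hamp2 tumour 1 (105) lay above the WD_CCl4 pool of that duration (45.4). With a duration term in the fit, tumour 1 alone stood at a log2 change of 0.76 against WD_CCl4 for Hamp2. Id1 had 8.64 and 59.6 in tumours 1 and 2 against 9.22 and 9.22 in WD_CCl4 pools, 6.900-fold more in tumour 2 than in tumour 1. Trf had 19147 and 57983 against 15744 and 15173, which was 2.11% and 5.03% of all reads in tumours 1 and 2. The 10 hepatocyte markers summed to 82725 and 249881 in tumours 1 and 2 against 115152 and 77044 in the WD_CCl4 pools. Most of this was albumin, at 66122 and 203789 in tumours 1 and 2. With the tumours as a pair, limma called 0 of the 9 markers tested against WD_CCl4, beside 0.972% of all genes, with a median log2 change of 0.04. The part of hepatocyte RNA in Trf was not tested. Ftl1 had 3509 and 927 against 2398 and 2361, so tumour 1 lay above and tumour 2 below both pools. Fth1 had 2375 and 1282 against 1446 and 1500.4, and the ratio of Fth1 to Ftl1 normalised reads was 0.677 in tumour 1 and 1.38 in tumour 2 against 0.603 and 0.635 in the WD_CCl4 pools.

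Tfrc had 43.4 and 15.99 in tumours 1 and 2 against 19.3 and 29.01 in the WD_CCl4 pools, and Scara5 had 16.97 and 3.42 against 14.1 and 22.3; in both genes tumour 1 was the higher tumour. Trf lay above the WD_CCl4 pools in both tumours, and Slc40a1 and Bmp6 lay below them in both. Slc40a1 had 126 and 91.7 in the tumours, below every liver pool (129 to 214), and its change against WD_CCl4 was -0.64 ± 0.21 (limma, unadjusted p = 0.0173, adjusted p = 0.193). Bmp6 had 2.62 and 2.64, also below every liver pool (2.93 to 4.38), with a change of -0.34 ± 0.24 (adjusted p = 0.518). The 9 resident macrophage markers summed to 483 and 399 in tumours 1 and 2 against 936 and 651 in the WD_CCl4 pools, and the 12 endothelial markers to 446 and 412 against 577 and 432. None of these markers was called in the tumours against WD_CCl4, and their part in Slc40a1 and Bmp6 was not tested.

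**Figure D5:**
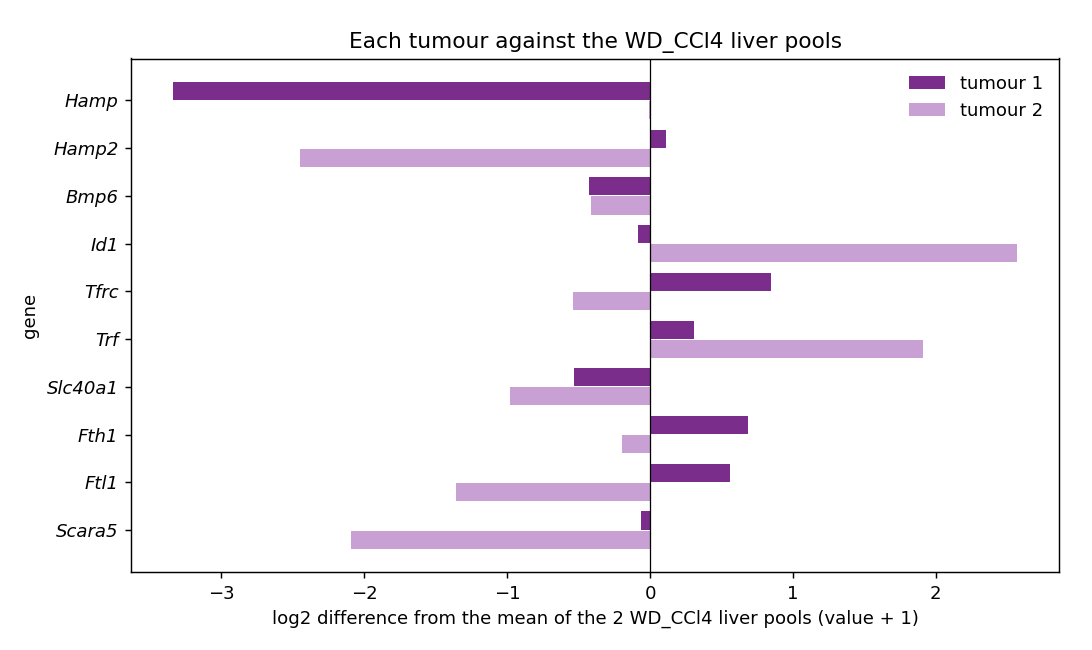
Log2 difference of each gene in tumour 1 (dark) and tumour 2 (light) from the mean of the WD_CCl4 liver pools of both durations, with no adjustment for duration. Hamp is far below 0 in tumour 1 only, Hamp2, Ftl1 and Scara5 in tumour 2 only, and Slc40a1 and Bmp6 are below 0 in both.

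With the tumours taken as a pair, limma called 0 of 10 members against the WD_CCl4 pools, beside 0.972% of all genes; 2 had an unadjusted p under 0.05, and edgeR and DESeq2 called 0 (beside 0.672% and 5.89% of all genes). The median log2 change was -0.35 for the members and -0.00267 for all genes tested. Against ND_oil limma also called 0, beside 10.6% of all genes; 3 had an unadjusted p under 0.05 (Hamp -2.49 ± 0.95, Hamp2 1.999 ± 0.79 and Id1 1.97 ± 0.75), edgeR called 0 (beside 11.0%) and DESeq2 called Hamp2 and Id1 (beside 18.6%). Each tumour alone gave more calls, with the lone tumour assumed to vary like the pools and a term for duration in the fit. Tumour 1 alone against WD_CCl4 gave 3 of 10 (beside 17.9% of all genes): Hamp at -3.30 ± 0.26 (adjusted p = 0.000402), Fth1 at 0.67 ± 0.19 (0.0421) and Tfrc at 0.74 ± 0.22 (0.04997). Tumour 2 alone gave 6 of 10 (beside 18.9%): Id1 at 2.51 ± 0.22 and Trf at 1.88 ± 0.41 higher, and Scara5 at -2.51 ± 0.21, Hamp2 at -1.80 ± 0.39, Ftl1 at -1.31 ± 0.22 and Slc40a1 at -0.86 ± 0.16 lower, with adjusted p of 0.000188, 0.0138, 0.000137, 0.0132, 0.00457 and 0.00776. Against ND_oil tumour 1 alone gave 3 of 10 (Hamp, Hamp2 and Fth1, beside 34.3% of all genes) and tumour 2 alone 7 of 10 (Hamp, Id1, Tfrc, Trf, Slc40a1, Ftl1 and Scara5, beside 27.2%). No member other than Hamp against ND_oil was called in both tumours. Of the other iron and haem genes, Lcn2 rose in the tumours by 2.97 ± 0.39 over WD_CCl4 pools (adjusted p = 0.0209), with 1429 and 757 normalised reads in tumours 1 and 2 against 35.6 and 168 in WD_CCl4 pools. Against ND_oil, 4 of 11 genes of haem synthesis fell: Alas2 by 2.04 ± 0.50, Cpox by 1.11 ± 0.20, Alad by 0.91 ± 0.21 and Urod by 0.61 ± 0.15 (adjusted p = 0.0423, 0.0163, 0.0338 and 0.0488). Slc48a1, a haem transporter of lysosomes, rose by 1.47 ± 0.31 and Egln3 fell by 1.38 ± 0.19 (adjusted p = 0.0267 and 0.006796). Alas1 had 207 and 120.5 in tumours 1 and 2 against 685 and 682 in the WD_CCl4 pools, a difference of -2.15 ± 0.40 that did not pass (adjusted p = 0.0562).

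Among 7845 genes with a mean of at least 10 normalised reads, those whose pattern over the 8 liver pools was most like that of Hamp were Tmem41b, Itih3, 2410015M20Rik, Uqcrh and Atraid (Pearson r 0.988 to 0.992), and the least like were 4931408D14Rik and Tmem184b (-0.986 and -0.988). For Hamp2 they were Ngef, Serpina6, Narf, Ces2g and Hdac11 (Pearson r 0.923 to 0.968) and Ppp2r4 and Hip1r (-0.968 and -0.971). For Tfrc they were Rexo2, Ncald, Phkb, Nop58 and Smim14 (Pearson r 0.943 to 0.963) and Tmem131 and Fchsd2 (-0.958 and -0.965). With 8 pools that share conditions and durations and this many genes, such values are a description, and no p is given.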

How the data were processed

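The authors deposited 1 table of normalised signal per gene for 10 poly-A-selected TruSeq libraries, made from 200 ng of total RNA per the labels' protocols; STAR and the mm10 build are named in the submitters' processing notes, and the gene counter, annotation and scaling are not given there. In the deposited table every signal value was a whole read number times 1 constant per library (100% of values within 0.01 reads), with scaling factors of 0.8676 to 1.1804 and 23206229 to 30137802 reads in total per library. Genes that reached 1 in 2 or more libraries were tested (12648 of 24062; 6447 were at 0 in all) with limma 3.58.1 (R 4.3.3) on log2(value + 1), with group means and a duration term, the variance trend and Benjamini-Hochberg adjustment at 0.05. Liver comparisons used the 8 pools, which leave 3 residual degrees of freedom, and tumour comparisons used all 10 libraries. A fold change on the log2(value + 1) scale understates the change of low genes. edgeR 4.0.16 and DESeq2 1.42.0 were run on the recovered reads as alternatives. The limma fit was also run on simulated counts, whose outcome is not reported here. Those counts gave the tumours the spread of the liver pools, so they cannot speak to the spread of the real tumours. Each pool and tumour is a separate sample, and nothing in the labels pairs them beyond duration. All 10 members are named. From each pathway list up to 4 called genes with the largest change are named in a comparison, or up to 2 of the highest mean where none is called, and patterns like those of Hamp, Hamp2 and Tfrc are named by Pearson's r. Apart from these, markers were named to give context, and a few genes of the lists are not reported here. The members and the gene lists (8 of pathways, 9 of cell type markers) were chosen with earlier results of these data known. Sequences and promoters are from RefSeq (GRCm38.p6) and GENCODE vM21 (GRCm38).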

Additional observations from a re-analysis of the deposited data

Results flagged for a closer look

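Scara5 responded to CCl4 differently on the 2 diets. Its values were 14.1 and 22.3 normalised reads in WD_CCl4 pools against 2.31 and 4.93 in WD_oil pools of 12 and 24 weeks, and 7.20 and 14.8 in ND_CCl4 pools against 10.2 and 20.9 in ND_oil pools. The difference between the CCl4 effects was 2.54 ± 0.22 on the log2 scale (limma interaction term, adjusted p = 0.00612).

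The difference of Hamp2 between WD_CCl4 and WD_oil pools went opposite ways at the 2 durations. At 12 weeks it was 0.66 on the log2 scale, with 208 normalised reads in the WD_CCl4 pool against 131 in the WD_oil pool. At 24 weeks it was -0.94, with 45.4 in the WD_CCl4 pool against 87.9 in the WD_oil pool. With 1 pool of each kind at each duration, this difference was not tested.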

How the results depend on the processing

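For the 11 calls of members, 81 of 107 refits with another pseudocount, filter, scaling, variance prior, duration term, set of libraries or tool kept the call and 26 lost it, and of 88 refits without 1 pool 67 kept it and 21 lost it; none reversed. With no filter on low values the members called numbered 1 in WD_CCl4 (beside 1887 of 17615 genes) and 1 in ND_CCl4 against ND_oil (beside 1353). They numbered 0 in WD_oil against ND_oil, in WD_CCl4 against WD_oil and in the interaction, where all genes called numbered 0, 3 and 0. With the tumours in the same fit, whose spread then enters the estimate, 0 members were called in each of these 5 comparisons. All genes called there numbered 796, 437, 4, 6 and 0 of 12648 in the same order. Without the duration term 0 members were called in WD_oil against ND_oil and 0 in the interaction, beside 121 and 11 of all genes. The stricter filter (at least 10 in 2 libraries), which tests fewer genes, left 1 in ND_CCl4 against ND_oil and 1 in WD_CCl4 against WD_oil. All genes called there numbered 2379 and 579 of 8520. Id1 did not pass that filter, at 9.22 or less in the pools and 8.64 in tumour 1, so it was not tested there. Quantile normalisation gave 4 in ND_CCl4 against ND_oil and 1 in WD_CCl4 against WD_oil, beside 2508 and 476 of 12648 genes. It gave 5 in WD_CCl4 against ND_oil (Trf and Slc40a1 gained, Id1 lost), beside 2531 genes, and the cause was not tested. DESeq2 called 5 in WD_CCl4 against ND_oil (Trf gained), 1 in WD_CCl4 against ND_CCl4, 2 for duration and 2 in the tumours against ND_oil. All genes called there numbered 3324, 67, 90 and 2349 of 12648. Leaving out 1 library gave 1 to 4 called in WD_CCl4 against ND_oil, 1 to 2 in ND_CCl4 against ND_oil, 1 to 2 in WD_oil against ND_oil, 1 to 2 in WD_CCl4 against WD_oil, 0 to 1 in WD_CCl4 against ND_CCl4 (1 without the WD_CCl4 pool of 24 weeks), 0 to 1 in the interaction, 0 to 6 in the tumours against WD_CCl4 and 0 to 7 against ND_oil. The replicate numbers of the pools stand for duration, 12 weeks for 1 and 24 weeks for 2, so the duration term of the fit already blocks the pools by number. No paired analysis was possible because the numbers mark no shared animal, litter or batch beyond that, and for the tumours nothing at all. With 2 pools a condition, 1 per duration, and levels under 10 normalised reads for Id1 and Bmp6, small changes could not be seen.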
